A study of Homo sapiens with 6 samples.

Results

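The machinery that copies the genome in S phase was followed in THP1, a human monocytic acute myeloid leukaemia cell line, as 45 genes chosen by name for their role in DNA replication and the entry into S phase. Each sample was hybridised to its own Affymetrix U133 Plus 2.0 array. Of the samples 3 came from untreated cells and 3 from cells on immobilised Dll4-Fc, both cultured 48 hours. Dll4-Fc is a fusion of the outer domain of Delta-like 4, which activates Notch receptors, with an Fc fragment. The sample labels give the coating as 60 nM and the treatment protocol as 30 nM, the protocol calls the control vehicle where the sample labels call it untreated, and a coating of Fc alone is not among the labelled groups. All samples are the same leukaemia line, and nothing in the labels says whether the 3 samples of a group were separate cultures. The p-values therefore measure no more than the spread between these arrays, which may be technical. All 45 genes were found among the 19775 genes with a probe set of exactly 1 gene symbol, and each was read from its probe set with the highest mean signal. Their mean log2 signals lay between 8.27 and 13.2, all above the median probe set signal of 5.70, so none of the 45 was dim on these arrays.

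DNA is copied once per cell cycle. In G1 phase the origin recognition complex, CDC6 and CDT1 load the ring of MCM2 to MCM7 onto DNA, a step called licensing. At the start of S phase the kinases CDC7 with DBF4 and CDK2 with cyclin E activate that ring together with CDC45 and the GINS complex, polymerase alpha with primase lays primers, and polymerases delta and epsilon extend them with the PCNA clamp. E2F transcription factors switch on many of these genes once the retinoblastoma family of repressors releases them, and differentiating myeloid cells commonly leave this cycle.

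Across genes, Pearson's r was 0.997 to 0.999 between arrays of the same group and 0.981 to 0.985 between arrays of different groups. Of 9 measured myeloid markers 6 were higher with Dll4-Fc and 3 lower: the granule enzyme MPO (-0.79), the receptor CSF3R (-0.45) and the transcription factor CEBPA (-0.21). Both groups carried the myeloid markers, with lysozyme (LYZ) at a mean log2 signal of 11.87 untreated and 13.87 with Dll4-Fc and TYROBP, a signalling adaptor of myeloid receptors, at 11.91 and 12.45. Of 12 macrophage marker genes 11 were higher with Dll4-Fc. The log2 of the summed linear signal of the 12 ran from 9.19 to 9.34 untreated and from 12.65 to 12.77 with Dll4-Fc. Of 24 measured markers of T and NK, B, erythroid, epithelial, fibroblast and endothelial cells 0 were lower and 1 was higher by limma, the B cell factor PAX5, from 7.24 to 7.84. At an unadjusted p under 0.05, 1 was lower and 3 were higher, where 21% and 15.4% of all genes were. The macrophage marker rise accompanies every result below, and its part in them was not tested.

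Replication genes were lower with Dll4-Fc, by small amounts. Of the 45 genes 22 passed the test as lower and 0 as higher, where limma called 26.6% of all genes at an adjusted p under 0.05, 15% lower and 11.6% higher. Among the 12747 genes at least as bright as the median probe set, as all 45 were, 21.3% were lower and 16% higher. Under cyclic loess normalization 21 of the 45 were lower and 1 higher, where 12.5% and 14.5% of all genes were. The share of all called genes that were higher went from 43.7% to 53.7%. Without adjustment 29 were lower and 1 was higher at p under 0.05, where 21% and 15.4% of all genes were. Of the 12747 brighter genes 28.9% and 19.8% were. The median log2 difference (Dll4-Fc minus untreated, as throughout) was -0.20 over the 45 genes and -0.01 over all genes, and 38 of the 45 differences were negative. The 3 Dll4-Fc arrays lay wholly below the 3 untreated arrays for 31 genes and wholly above for 3, where 23.5% and 18.1% of all genes did so. Of the 12747 brighter genes 4129 lay wholly below and 2989 wholly above. No member changed 2-fold: the differences ran from -0.78 for CDC7 to 0.15 for CCNE1. These arrays measure a mixed culture, in which fewer cells in S phase and less of each RNA per cell cannot be told apart, and quantile normalization hides any change in total RNA per cell.

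**Figure D1:**
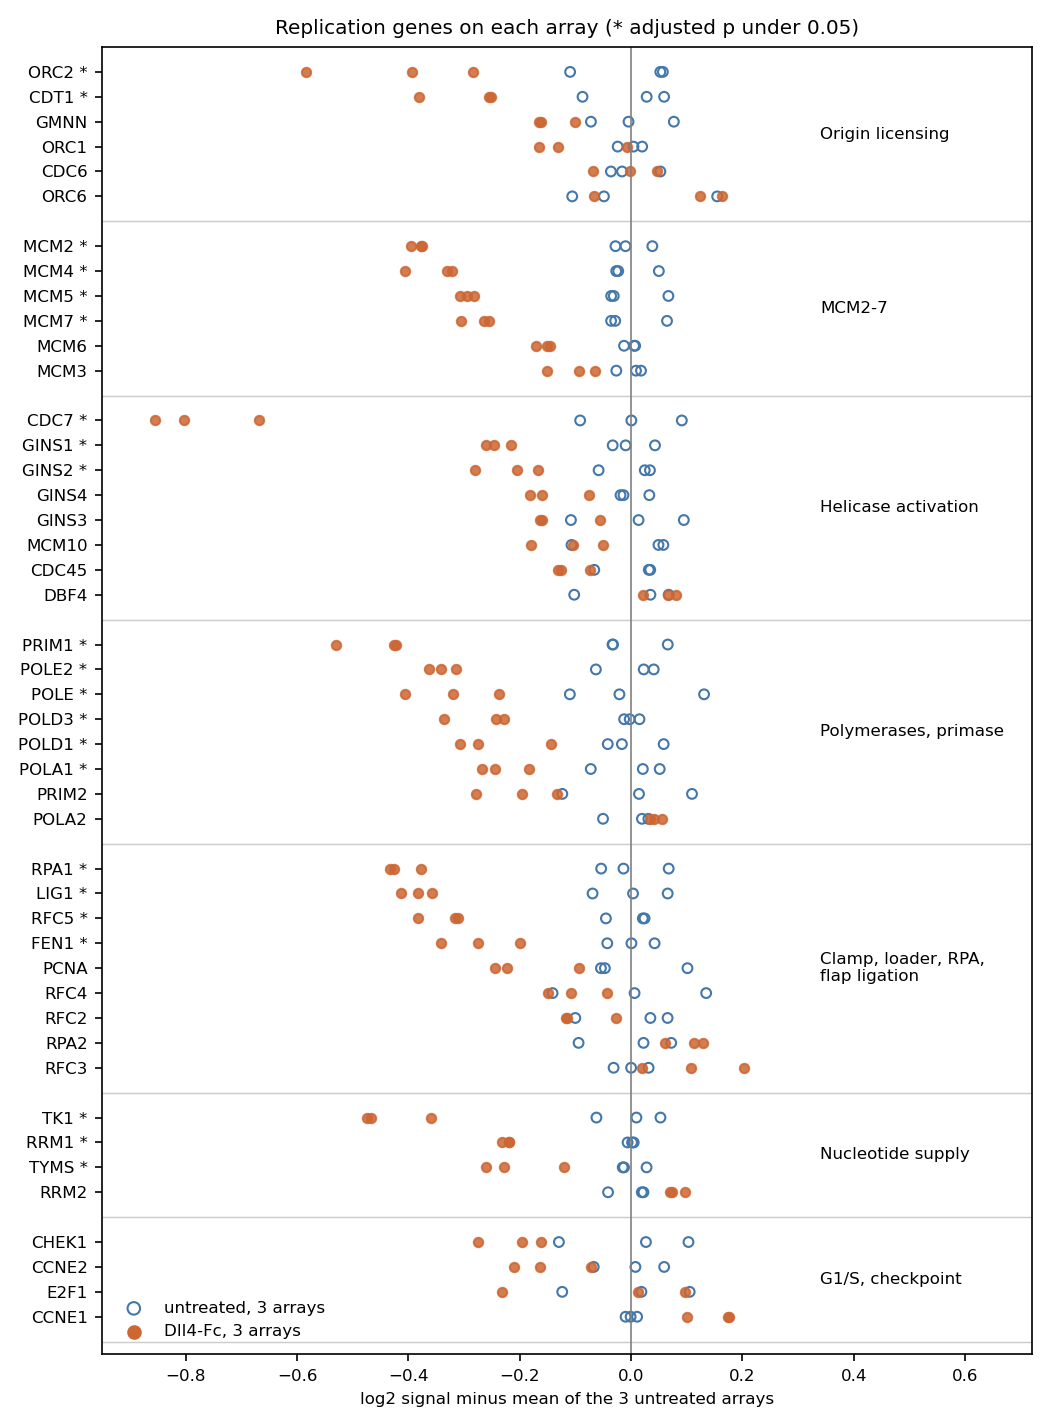
Log2 signal of each of the 45 replication genes on each of the 6 arrays, minus that gene's mean over the 3 untreated arrays, grouped by replication step; open circles are untreated arrays, filled circles Dll4-Fc arrays, and an asterisk marks an adjusted p under 0.05. In 31 genes every filled circle lies left of every open one, and CDC7 stands farthest left.

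The count depends on single arrays: 13 genes passed as lower without Dll4-Fc replicate 1, when 9.36% of all genes did, and 14 without untreated replicate 2, when 9.95% did. Of the 22 genes, 11 kept their call in every alternative normalization, probe set choice, variance setting and array omission in which they were measured: CDC7, PRIM1, TK1, ORC2, RPA1, LIG1, MCM2, MCM4, POLE2, MCM5 and MCM7. On the level of the arrays, the median deviation of the 45 genes from their untreated means was -0.23, -0.22 and -0.16 on the Dll4-Fc arrays, replicate 3 being the least shifted, against 0.02, 0.01 and -0.02 on the untreated arrays.

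**Figure D2:**
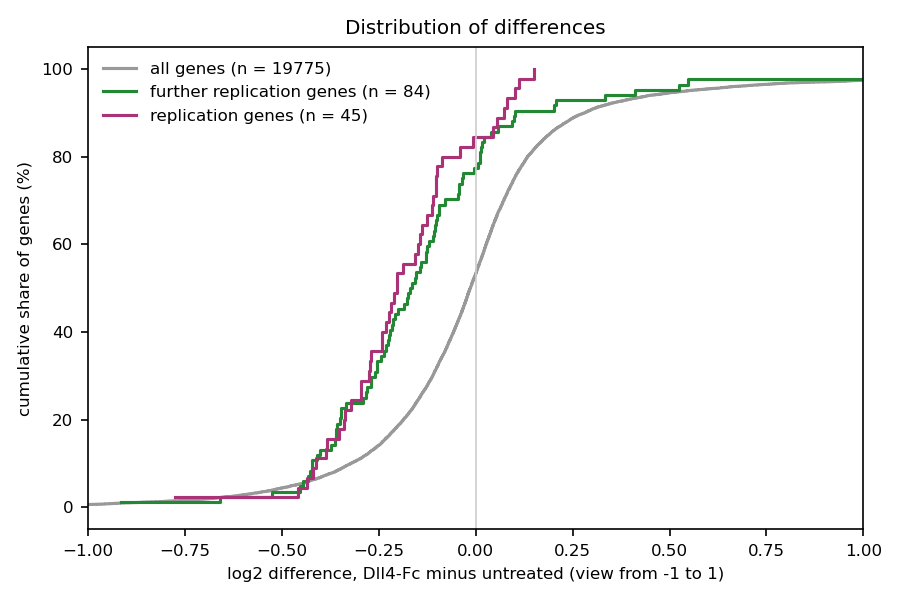
Cumulative share of genes (percent) by log2 difference, Dll4-Fc minus untreated, for all 19775 genes, the 45 replication genes and 84 further replication genes; the axis is limited to -1 to 1. The curve of the replication genes rises to the left of that of all genes, with medians of -0.20 and -0.01.

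Promoters of the members were then read for letters that E2F proteins are known to bind. The RefSeq promoter table (GRCh38.p14; 250 bases before to 50 after a gene's start) held windows for 39 members. Both strands were searched for 4 E2F words. The first of these words is TTCCCGC, and the second differs from it by a single letter as TTCGCGC. The other two share the start TTG: one of them continues to TTGCCGC and the last one reads in full TTGGCGC. At least 1 word stood in 29 of the 39 (74.4%), against 15.3% of all 27305 genes with a window there. Among members that fell 16 of 19 held a word, and among members that did not pass 13 of 20. MCM4, MCM5, CCNE2, GINS4, POLD3 and RPA2 were not matched. A word match is a description of letters and not a measured site. The sequences below contrast the 2 members with the steepest falls among those holding a word, CDC7 and PRIM1, with the 2 that differed least, CDC6 and E2F1; each reads 5′ to 3′ on the gene's strand, with the E2F words in capitals.
CDC7 (chr1:91500601-91500900, plus strand): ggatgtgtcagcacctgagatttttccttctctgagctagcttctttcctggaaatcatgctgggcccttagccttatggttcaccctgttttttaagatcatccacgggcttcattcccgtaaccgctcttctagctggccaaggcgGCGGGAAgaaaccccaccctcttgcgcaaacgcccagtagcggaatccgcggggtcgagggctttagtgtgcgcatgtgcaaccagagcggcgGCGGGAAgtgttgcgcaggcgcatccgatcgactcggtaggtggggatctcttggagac
PRIM1 (chr12:56752274-56752573, minus strand): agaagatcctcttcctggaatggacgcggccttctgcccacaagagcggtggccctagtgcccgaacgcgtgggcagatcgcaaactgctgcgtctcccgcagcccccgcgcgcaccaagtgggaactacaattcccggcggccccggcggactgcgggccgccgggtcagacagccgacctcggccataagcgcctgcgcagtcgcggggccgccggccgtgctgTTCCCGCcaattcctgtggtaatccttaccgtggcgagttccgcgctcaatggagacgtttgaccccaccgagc
CDC6 (chr17:40287629-40287928, plus strand): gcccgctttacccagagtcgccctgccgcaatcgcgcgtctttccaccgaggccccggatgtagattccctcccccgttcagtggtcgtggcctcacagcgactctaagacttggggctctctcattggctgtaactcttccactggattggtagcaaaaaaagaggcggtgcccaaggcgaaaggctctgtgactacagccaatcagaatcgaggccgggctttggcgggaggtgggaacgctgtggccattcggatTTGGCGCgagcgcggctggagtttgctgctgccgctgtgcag
E2F1 (chr20:33686336-33686635, minus strand): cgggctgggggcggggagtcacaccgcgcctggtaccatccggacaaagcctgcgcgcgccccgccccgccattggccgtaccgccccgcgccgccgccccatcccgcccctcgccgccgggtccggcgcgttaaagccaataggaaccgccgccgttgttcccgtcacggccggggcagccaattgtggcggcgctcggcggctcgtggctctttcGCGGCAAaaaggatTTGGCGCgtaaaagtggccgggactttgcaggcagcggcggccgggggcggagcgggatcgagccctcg
CDC7 held 2 words, PRIM1 held 1, CDC6 held 1 and E2F1 held 2. These 4 were chosen among members that hold a word.

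Of 6 origin recognition and licensing genes 2 fell (33.3%), ORC2 and CDT1. By limma 15% of all genes and 21.3% of the 12747 brighter genes were lower. ORC2, a subunit of the complex that marks origins, read 8.76, 8.76 and 8.60 on the log2 scale in untreated arrays and 8.31, 8.12 and 8.42 with Dll4-Fc. The groups did not overlap, and ORC2 fell by 0.42 ± 0.09 (SE, n = 3 arrays per group, adjusted p = 0.0121), a 1.34-fold fall. CDT1, the factor that brings the helicase to origins, read 10.25, 10.39 and 10.36 untreated against 9.95, 10.08 and 10.08, and fell by 0.30 ± 0.07 (adjusted p = 0.0143). Its second probe set, which is dimmer, differed by -0.74, and the mean of both by -0.52. The CDT1 call on the brightest probe set was lost without untreated replicate 2 or Dll4-Fc replicate 1, where the adjusted p reached 0.0599.

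The inhibitor of CDT1, geminin (GMNN), differed by -0.14 ± 0.06 (adjusted p = 0.128) with no overlap between the groups. ORC1, the largest origin recognition subunit, differed by -0.10 ± 0.06 and ORC6, the smallest, by 0.07 ± 0.09, both with overlapping groups. CDC6, the loader that works with CDT1, read 9.84, 9.77 and 9.75 untreated and 9.78, 9.83 and 9.72 with Dll4-Fc, a difference of -0.01 ± 0.06 with a 95% interval from -0.14 to 0.13. Its sign turned in 6 alternatives, and without shared probe sets it was 0.15.

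All 6 subunits of the helicase ring lay lower with Dll4-Fc without overlap between the groups, where 23.5% of all genes did so. Of the 6 genes 4 passed the test (66.7%), where 15% of all genes and 21.3% of the brighter genes passed as lower. MCM2 read 12.00, 11.94 and 11.95 untreated and 11.57, 11.59 and 11.59 with Dll4-Fc and fell 1.30-fold (0.38 ± 0.05, adjusted p = 0.00133). The only MCM2 probe set is of the class whose probes match several transcripts. MCM4 read 11.75, 11.68 and 11.67 against 11.29, 11.38 and 11.37. It fell by 0.35 ± 0.06, and 3 of its 5 probe sets passed as lower. MCM5 (11.53, 11.43 and 11.43 against 11.16, 11.17 and 11.18) fell by 0.29 ± 0.05 and MCM7 (11.24, 11.25 and 11.34 against 10.97, 11.01 and 11.02) by 0.28 ± 0.05. For both of these genes each of 2 probe sets was lower past the threshold.

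MCM6 and MCM3 did not pass, though their groups did not overlap. MCM6 read 12.76, 12.74 and 12.76 untreated against 12.61, 12.58 and 12.60, a difference of -0.16 ± 0.05 with adjusted p = 0.0523. It passed in 4 alternatives, when its probe sets were averaged, when dim genes were left out, under array weights and under a trended robust prior, and its dimmer probe set differed by -0.50. MCM3 differed by -0.10 ± 0.05 (adjusted p = 0.209). The median difference over the ring was -0.29.

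Among the factors that switch the loaded helicase on, the kinase gene CDC7 showed the largest fall of all 45 genes. Its log2 signal was 10.36, 10.46 and 10.55 in untreated cells and 9.65, 9.60 and 9.79 with Dll4-Fc. That is a 1.71-fold fall (0.78 ± 0.07, adjusted p = 0.000268), from the only CDC7 probe set. The gene of its activating subunit, DBF4, read 10.91, 10.87 and 10.74 against 10.92, 10.91 and 10.86, which overlap, a difference of 0.06 ± 0.06 with a 95% interval from -0.09 to 0.20. The promoter of CDC7 shown above held 2 E2F words and that of DBF4 held 0. Of the 19 members with a window that fell, 16 held a word, while ORC2, FEN1 and POLD1 held 0. Of the 20 that did not pass, 13 held a word, among them MCM3 with 3 and E2F1 with 2. A link between words and falls was not tested.

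Of the GINS complex, which joins the helicase at the fork, GINS1 fell by 0.24 ± 0.05 (11.68, 11.73 and 11.66 against 11.44, 11.43 and 11.48) and GINS2 by 0.22 ± 0.06 (adjusted p = 0.0294). The GINS1 call was lost when untreated replicate 2 or either of Dll4-Fc replicates 1 and 2 was left out. GINS2 lost its call in 7 alternatives. Its probe set belongs to the class whose probes match several transcripts, called shared here, and the brightest of its other probe sets differed by -0.04. GINS4 differed by -0.14 and GINS3 by -0.13, neither past the threshold. CDC45, the third part of the active helicase, differed by -0.11 ± 0.06 and MCM10, which stimulates its activation, by -0.11 ± 0.07. So 3 of these 8 genes fell (37.5%) and 5 did not pass, with a median of -0.13. By limma 15% of all genes were lower, and 21.3% of the brighter genes.

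Of 8 DNA polymerase and primase genes 6 fell (75%), and the median of the 8 was -0.26. Among all genes 15% were lower, and among the brighter genes 21.3%. PRIM1, the catalytic primase subunit, read 11.50, 11.40 and 11.40 untreated and 10.90, 11.01 and 11.01 with Dll4-Fc. It fell 1.37-fold (0.46 ± 0.06, adjusted p = 0.00126), and its promoter shown above holds 1 E2F word. POLE2, an accessory subunit of the leading strand polymerase epsilon, fell by 0.34 ± 0.05 (10.33, 10.35 and 10.25 against 9.95, 10.00 and 9.97), and the catalytic subunit gene POLE by 0.32 ± 0.08. POLE lost its call under cyclic loess (adjusted p = 0.0659) and when untreated replicate 2 or either of Dll4-Fc replicates 1 and 2 was left out.

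Polymerase delta, which copies the lagging strand, had POLD3 lower by 0.27 ± 0.05 and the catalytic POLD1 by 0.24 ± 0.06. POLA1, the catalytic subunit of polymerase alpha, read 8.94, 8.97 and 8.85 against 8.65, 8.68 and 8.74 and fell by 0.23 ± 0.06. POLD1 and POLA1 each lost their call in 5 alternatives, among them the omission of untreated replicate 1 or 2 and of Dll4-Fc replicate 1 or 2. Averaged over both probe sets POLD3 differed by -0.08 (adjusted p = 0.452), its dimmer probe set differing by 0.11. PRIM2, the large primase subunit, differed by -0.20 ± 0.08 (adjusted p = 0.095), and POLA2, the accessory subunit of polymerase alpha, by 0.04 ± 0.05, with its 3 Dll4-Fc arrays just above the untreated ones. The POLA2 probe set used is a shared one, and without shared probe sets the difference was -0.15.

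Of 9 genes of the clamp, its loader, single-strand binding and fragment joining, 4 fell (44.4%). The shares lower were 15% of all genes and 21.3% of the brighter genes. RPA1, the large subunit of the single-strand binding protein RPA, read 11.73, 11.65 and 11.61 untreated and 11.23, 11.24 and 11.28 with Dll4-Fc, and fell 1.33-fold (0.41 ± 0.06, adjusted p = 0.00159). LIG1, the ligase that seals Okazaki fragments, read 9.46, 9.53 and 9.59 against 9.11, 9.17 and 9.14 and fell 1.31-fold (0.39 ± 0.06). FEN1, the nuclease that trims those fragments, fell by 0.27 ± 0.06, and both of its probe sets were lower past the threshold. For FEN1 the call was lost without Dll4-Fc replicate 1 or 2.

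RFC5, a subunit of the loader that opens the PCNA clamp, fell by 0.34 ± 0.05 on its brightest probe set, but another passed in the opposite direction with a difference of 0.32, and the mean of its 3 probe sets was -0.10 (adjusted p = 0.248). The direction for RFC5 is therefore uncertain. The other loader genes did not pass: RFC4 differed by -0.10, RFC2 by -0.09 and RFC3 by 0.11, all with overlapping groups. PCNA, the clamp, read 12.33, 12.49 and 12.34 against 12.14, 12.16 and 12.29, a difference of -0.19 ± 0.07 (adjusted p = 0.0956), and it passed under array weights and under a trended robust prior. RPA2, the middle subunit of RPA, differed by 0.10 ± 0.06.

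**Figure D3:**
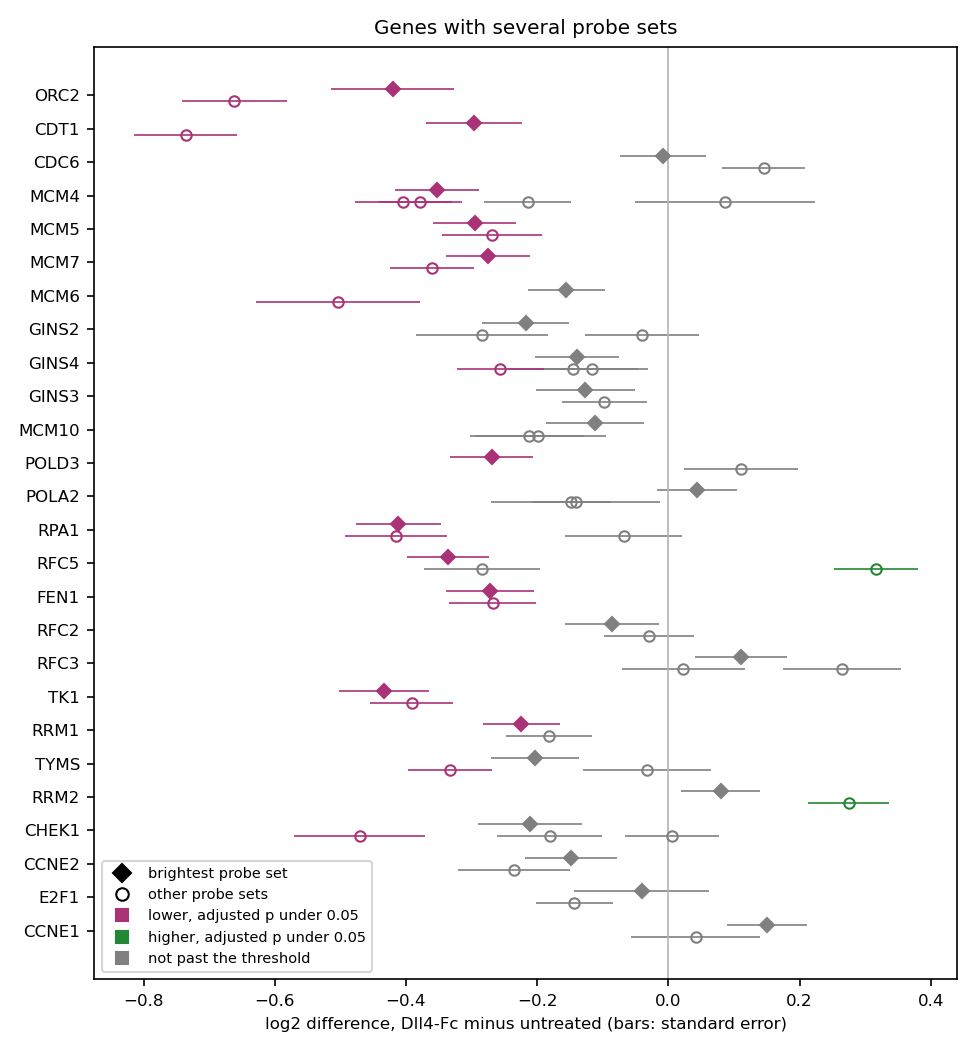
Log2 difference, Dll4-Fc minus untreated, for every probe set of the 26 replication genes with several, with standard errors; diamonds are the brightest probe set and open circles the others. Colours show the adjusted p of the fit over all 54675 probe sets, so a diamond can miss the threshold where the gene-level fit passed. RFC5 and RRM2 hold the only probe sets that passed as higher.

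Over all 85 probe sets of the 45 genes, 31 were lower and 2 higher past the threshold, where 9.25% of all probe sets were lower and 7.21% higher. Of the 40 probe sets not used for a gene's value, 13 were lower and 2 higher. The count of lower probe sets was 16 without Dll4-Fc replicate 1, 18 without Dll4-Fc replicate 2, 18 without untreated replicate 2 and 20 without untreated replicate 1. In the same order 9.36%, 10.1%, 9.95% and 11.2% of all genes were lower, in place of 15%. These are shares of genes and not of probe sets, for which shares under the omissions are not given here. The 2 higher ones belong to RFC5 and to RRM2. Agreement between probe sets was clearest for CDT1, ORC2, MCM5, MCM7, FEN1 and TK1, where both passed as lower.

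Nucleotide supply genes were lower except for RRM2. TK1, the thymidine salvage kinase of S phase, read 11.06, 11.02 and 10.95 untreated and 10.54, 10.54 and 10.65 with Dll4-Fc, and fell 1.35-fold (0.43 ± 0.06, adjusted p = 0.00178). RRM1, the large subunit of ribonucleotide reductase, read 12.65, 12.65 and 12.64 against 12.41, 12.42 and 12.42 and fell by 0.22 ± 0.05 (adjusted p = 0.0122). Leaving out untreated replicate 2 or Dll4-Fc replicate 1 ended the RRM1 call. TYMS, thymidylate synthase, fell by 0.20 ± 0.06 (adjusted p = 0.0386), and 9 alternatives ended this call, the most for any of the 22. The next brightest TYMS probe set was lower by 0.33 ± 0.06 (limma adjusted p = 0.0098 over all probe sets), and the faintest differed by -0.03.

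RRM2, the small reductase subunit whose level limits the enzyme in S phase, read 12.23, 12.17 and 12.24 untreated and 12.29, 12.31 and 12.28 with Dll4-Fc. The Dll4-Fc arrays lay above the untreated ones by 0.08 ± 0.05, which did not pass (adjusted p = 0.32, 95% interval -0.04 to 0.20). Its other probe set was higher by 0.27 ± 0.06 (adjusted p = 0.0194 over all probe sets), and the mean of both passed as higher (0.18, adjusted p = 0.0344). RRM2 was therefore not seen to fall on either probe set.

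Genes of G1/S control had 0 of 4 members past limma's threshold in either direction. At an unadjusted p under 0.05 there were 2 lower and 1 higher, where 21% and 15.4% of all genes were. Of the 12747 brighter genes 28.9% and 19.8% were. CCNE1, cyclin E1, read 9.48, 9.46 and 9.47 untreated and 9.57, 9.65 and 9.65 with Dll4-Fc, a difference of 0.15 ± 0.05 (adjusted p = 0.072). CCNE1 passed as higher when dim genes were left out, under cyclic loess and under a trended robust prior. CCNE2, cyclin E2, differed by -0.15 ± 0.06 (adjusted p = 0.134) with groups that just failed to overlap. E2F1, the transcription factor that drives this programme, read 8.89, 8.75 and 8.98 against 8.88, 8.97 and 8.64, a difference of -0.04 ± 0.10 whose sign turned in 4 alternatives. CHEK1, the kinase of the replication checkpoint, differed by -0.21 ± 0.07 (adjusted p = 0.0774), and 1 of its 4 probe sets was lower past the threshold.

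Partner genes that act in the same complex, as rivals or in the same role were set against each other on the same array. The 9 pairs were chosen by role with their values known. The change of the first gene minus that of the second was -0.83 for CDC7 and DBF4, with a pooled SD of 0.15 and no overlap between the groups. For RPA1 and RPA2 it was -0.51 with an SD of 0.03, for RRM1 and RRM2 -0.30 with an SD of 0.03, for POLA1 and POLA2 -0.28 with an SD of 0.04, and for CCNE1 and CCNE2 0.30 with an SD of 0.07. In these 5 pairs the groups were well apart, and each gave an exact permutation p of 0.1 (2-sided, 0.129 adjusted over the 9 pairs), the smallest that 3 arrays against 3 allow, so no pair could pass 0.05. PRIM1 and PRIM2 (-0.26) and CDT1 and GMNN (-0.15) also gave 0.1 by the exact test, but their closest arrays nearly touched. For POLD1 and POLD3 (0.03) and POLE and POLE2 (0.02) the groups overlapped, with an exact permutation p of 0.9. The POLA1 and POLA2 contrast was -0.08 without shared probe sets, so its size rests on the POLA2 probe set used. Averaging probe sets moved other contrasts by more than their SD. CDT1 then differed by -0.52 and GMNN by -0.14, RPA1 by -0.30 and RPA2 by 0.10, and RRM1 by -0.20 and RRM2 by 0.18. The POLD1 and POLD3 contrast then turned to -0.16.

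**Figure D4:**
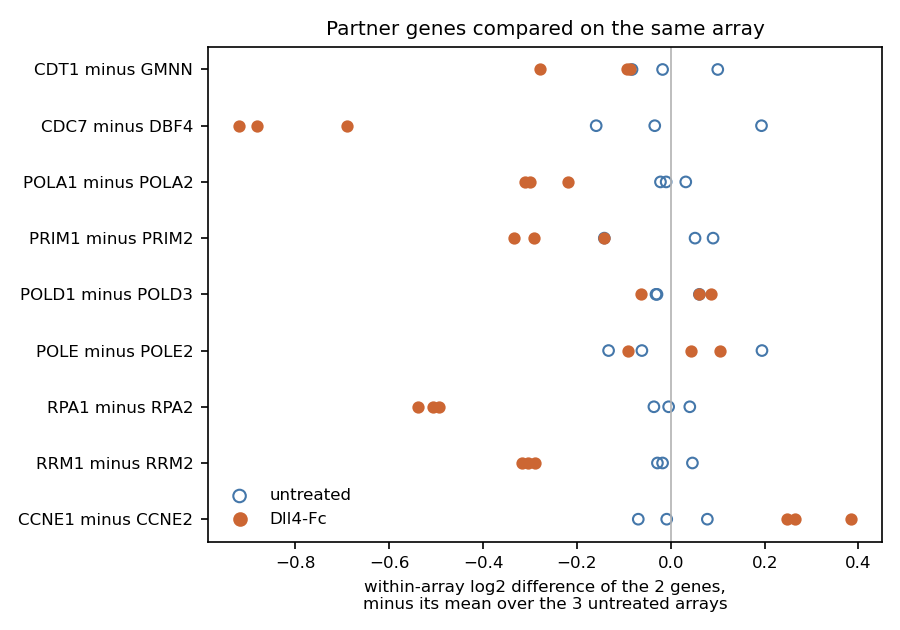
Within-array log2 difference of 2 partner genes on each of the 6 arrays, minus its mean over the 3 untreated arrays, for 9 pairs; open circles are untreated and filled circles Dll4-Fc arrays. The filled circles of CDC7 minus DBF4 and of RPA1 minus RPA2 lie far left of the open ones, while those of POLD1 minus POLD3 and POLE minus POLE2 overlap.

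The other genes of the pathway, 87 listed by role and 84 measured, held more lower than higher genes. Of these 32 were lower and 7 higher by limma and 45 did not pass, with a median of -0.17, where 15% and 11.6% of all genes were lower and higher. Only 2 of the 84 were dimmer than the median probe set. Of genes at least that bright 21.3% were lower and 16% higher, and at an unadjusted p under 0.05 28.9% and 19.8%. These shares also apply to the lists below. RNASEH2B, a subunit of the nuclease that removes ribonucleotides from DNA, had the largest fall, from 11.15, 11.18 and 11.00 to 10.16, 10.14 and 10.29, which is 1.89-fold (0.91 ± 0.07, adjusted p = 0.000109), and all 4 of its probe sets were lower. Its catalytic partner RNASEH2A fell by 0.42 ± 0.06 and POLD2, a further subunit of polymerase delta, by 0.43 ± 0.06. Of 21 further fork genes 10 fell (47.6%) and 0 rose by limma. At an unadjusted p under 0.05, 13 of these fork genes were lower and 0 higher, where 21% and 15.4% of all genes were.

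Licensing and firing genes outside the 45 included 6 that fell (37.5%) and 1 that rose (6.25%), of 16, where 15% and 11.6% of all genes did. SKP2, part of the ubiquitin ligase that removes CDT1 and p27, read 12.00, 12.08 and 11.92 against 11.40, 11.46 and 11.57 and fell 1.44-fold (0.52 ± 0.07). Averaged over its probe sets SKP2 differed by -0.34. MCM8, a relative of the ring subunits that acts in repair, fell by 0.40 ± 0.06 (-0.25 averaged over its probe sets), and DTL, which directs the destruction of CDT1 in S phase, by 0.36 ± 0.06. MCMBP, which binds MCM subunits, passed as higher by 0.20 ± 0.05 (adjusted p = 0.0306), but differed by -0.02 without shared probe sets and lost its call when any array was left out. Among 9 genes of replication-coupled chromatin 3 fell (33.3%) and 0 rose by limma, where 15% and 11.6% of all genes did. The 3 were the histone chaperones ASF1B (-0.45 ± 0.06) and ASF1A (-0.41 ± 0.07) and the maintenance methyltransferase DNMT1 (-0.25 ± 0.06). The DNMT1 call was lost when untreated replicate 2 or either of Dll4-Fc replicates 1 and 2 was left out. At an unadjusted p under 0.05, 6 of these chromatin genes were lower and 0 higher, where 21% and 15.4% of all genes were.

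Of 15 further nucleotide genes 3 were lower and 3 higher, or 20% each way, near the 21.3% and 16% of genes at least as bright as the median probe set. At an unadjusted p under 0.05, 6 were lower and 3 higher, where 21% and 15.4% of all genes were. Of the genes at least that bright 28.9% and 19.8% were. TYMP, which breaks down thymidine, read 7.39, 7.29 and 7.28 untreated and 9.02, 8.89 and 8.76 with Dll4-Fc and rose 2.97-fold (1.57 ± 0.08, adjusted p = 9.79e-06). SAMHD1, a hydrolase of deoxynucleotide triphosphates that restricts viruses in myeloid cells, read 12.63 on each untreated array and 13.14, 13.16 and 13.16 with Dll4-Fc. It rose 1.44-fold (0.52 ± 0.05, adjusted p = 0.00023), and 5 of its 6 probe sets were higher. PNP, a purine salvage enzyme, rose by 0.33 ± 0.06. The 3 that fell were IMPDH2, which makes guanine nucleotides (-0.34 ± 0.05), DUT, which keeps uracil out of DNA (-0.23 ± 0.05), and the thymidylate kinase DTYMK (-0.21 ± 0.05). The DUT call was lost when untreated replicate 2 or either of Dll4-Fc replicates 1 and 2 was left out, while DUT differed by -0.79 without shared probe sets. DTYMK differed by -0.06 (adjusted p = 0.456) averaged over its probe sets, and its call was also lost under cyclic loess and when untreated replicate 2 or either of Dll4-Fc replicates 1 and 3 was left out.

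Of 23 further G1/S control genes 10 fell (43.5%) and 3 rose (13%), where 15% of all genes were lower and 11.6% higher. The share that rose was thus near that of all genes. CDKN1A, the inhibitor p21 that binds cyclin-dependent kinases and PCNA, rose 3.49-fold, from 8.36, 8.31 and 8.34 to 10.24, 10.12 and 10.07 (1.80 ± 0.06, adjusted p = 1.69e-06). The only CDKN1A probe set is a shared one, so this rise was not measured without shared probe sets. The D-type cyclin genes CCND1 (0.55 ± 0.11) and CCND3 (0.41 ± 0.05) rose too, CCND3 by 0.20 when its probe sets were averaged. CCND1 was faint, at a mean of 5.88 untreated and 6.43 with Dll4-Fc, near the median probe set signal of 5.70. Both of its 2 probe sets were higher. CDK6, the kinase that D-type cyclins activate, fell 1.58-fold (0.66 ± 0.06), and 6 of its 7 probe sets were lower. The inhibitor gene CDKN1B, p27, fell by 0.44 ± 0.09 and TFDP2, a partner of E2F proteins, by 0.43 ± 0.08 (-0.92 without shared probe sets).

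**Figure D5:**
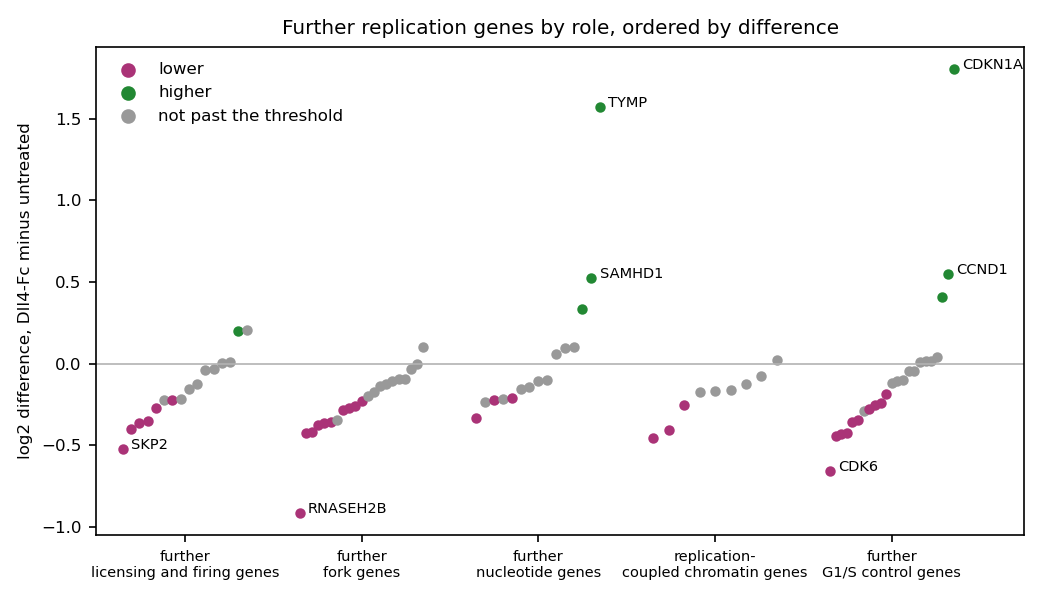
Log2 difference, Dll4-Fc minus untreated, of 84 further replication genes in 5 role groups, ordered by difference within each group; colour marks genes lower, higher or not past an adjusted p of 0.05, and genes beyond 0.5 are named. CDKN1A and TYMP stand highest, at 1.80 and 1.57, and RNASEH2B lowest, at -0.91.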

How the data were processed

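The authors deposited linear RMA intensities of 54675 probe sets on each array, RMA being named in the submitters' processing notes (version not given in the sources). Values were taken to log2 with no filter. Through GEO's annotation of this platform 41097 probe sets carried 1 gene symbol, 1801 carried several and 11777 were not listed. The test was that of limma 3.58.1 (R 4.3.3; functions lmFit and eBayes, 2-sided, 4 residual degrees of freedom), with Benjamini-Hochberg adjustment over all 19775 genes or all probe sets and a threshold of 0.05. The ± after a difference is its standard error and intervals cover 95%; the number of arrays limits the precision, with a median standard error of 0.06 for the 45 genes. The genes and lists were chosen with earlier results of these data known. Named from the further lists are the 3 largest passing rises and falls of each; promoters are the 2 steepest falls and 2 smallest differences with an E2F word. Pairs were tested with scipy 1.17.1. Alternatives tried were a replicate block, other normalizations, probe set choices and variance settings, and omission of each array.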

Additional observations from a re-analysis of the deposited data

How the results depend on the processing

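Deviations from the group means of arrays with the same replicate number correlated at 0.01, -0.21 and -0.15. With 3 arrays per group these values cannot settle whether the numbers pair the samples. With the replicate block 16 members were lower in place of 22 (GINS1, GINS2, POLA1, POLD1, RRM1 and TYMS no longer passed, nor did MCMBP, DUT, DTYMK and DNMT1 of the further genes), and 18 member probe sets were lower and 1 higher in place of 31 and 2. The share of all genes lower was then 10.4% in place of 15%. Without shared probe sets 14 of 35 members were lower, the further pathway genes higher were 4 of 66 in place of 7 of 84, and 18 of 53 member probe sets lower and 1 higher. In that setting 13% of all genes were lower and 9.35% higher. The number of members higher was 1 in place of 0 with the mean of all probe sets (RRM2). It was also 1 without dim genes, with cyclic loess and with a trended robust prior (CCNE1 in each). In these settings, in that order, 10.7%, 18.2%, 14.5% and 13.3% of the genes tested were higher. Cyclic loess gave 5 higher member probe sets in place of 2, while 14.5% of all genes were higher in place of 11.6%. Leaving out single arrays gave 13 to 23 members lower, 16 to 30 member probe sets lower and 0 to 2 higher. In these omissions 9.36% to 16.1% of all genes were lower. For the alternatives the shares given are of genes, also where the counts are of probe sets, so they are no exact match for those counts. Signs turned for 3 members that had not passed and for MCMBP, which had. CDC6 gave 0.0689 when probe sets were averaged, 0.146 without shared ones, 0.0527 with cyclic loess and 0.0022 with array weights, and ran from -0.0352 to 0.0223 over the omissions of 1 array. E2F1 gave 0.029 with cyclic loess and 0.0575 with array weights, and ran from -0.1091 to 0.0552 over these omissions. POLA2 gave -0.0817 when probe sets were averaged and -0.148 without shared ones, and MCMBP gave -0.00412 and -0.0168. The POLD1 change minus POLD3 change gave -0.163 when probe sets were averaged and -0.000355 with array weights. The cause of these shifts was not tested. Of the values of single members under an alternative, 543 kept direction and side of the threshold, 43 lost the call, 22 gained it and 12 turned sign. E2F words with a further T before them stood in 20 of 39 member promoters and in 3.99% of all genes with a window.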
